A study of Bos taurus with 21 samples.

Results

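The MCM2 to MCM7 proteins form the 6-subunit helicase that opens DNA at the start of replication. All probes for *MCM2*, *MCM3*, *MCM4*, *MCM5*, *MCM6* and *MCM7* were taken from a bovine array by matching the transcript accession of each probe to the cattle gene annotation. This gave 14 of 43653 non-control probes. They covered 5 of the 6 genes, among 12538 genes named on the array, and *MCM2* was matched by no probe. *MCM3* was chosen by its measured breed difference, a signal lower in one breed at every stage. Its breed difference is therefore given as a description without a test, and tests are confined to the other subunits and to the developmental stages.

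The study compared muscle of Blonde d'Aquitaine (BA) and Charolais (CH) foetuses at 110, 180, 210 and 260 days post conception (dpc), with 1 array per foetus. BA cattle are heavily muscled, in part through a mutation of myostatin, a growth factor that restrains muscle mass. Not all BA cattle carry the mutation, and the BA foetuses were not genotyped for it. All foetuses were purebred, from primiparous cows inseminated with bulls of the same breed, and 2 sires per breed were used. BA was represented by 3, 2, 3 and 2 foetuses at the successive stages and CH by 2, 3, 3 and 3. The sexes were not balanced. At 110 dpc the 3 BA foetuses were 2 males and 1 female, and both CH foetuses were female. In all, 3 of the 10 BA and 5 of the 11 CH foetuses were male. The sample labels name the longissimus thoracis and the study's methods the semitendinosus, so the tissue is called muscle here. The muscle markers *ACTA1*, *CKM* and *DES* were well above background on all 21 arrays.

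MCM2 to MCM7 are loaded as an inactive ring onto origins of replication in G1 phase. The ring starts to unwind DNA in S phase, once kinases act and CDC45 and the GINS complex bind. The genes are induced in cells that enter the cell cycle and their transcripts are scarce in cells that have left it. In muscle, dividing myoblasts carry this machinery and fused fibres do not divide. These arrays measured whole tissue, so fewer dividing cells and less RNA per cell cannot be told apart.

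Levels are given as normalized log2 intensity, which is the log2 signal relative to the 75th percentile of its array, set so that 0 is close to the median probe of a typical array. The levels of different probes cannot be compared with each other. Depth did not differ widely, with 29017 to 34501 probes well above background per array, and no spot was saturated. Brightness did go with stage. The 75th percentile was 669 to 932 intensity units at 110 dpc and 525 to 669 at 260 dpc, so the size of the stage differences depends on the scaling. A probe was tested when 7 or more of the 8 groups had a mean above 0, which 20132 probes met. Of the helicase probes 10 met it, namely 1 of 3 for *MCM3*, all 5 for *MCM4*, 2 of 3 for *MCM5*, the single probe of *MCM6* and 1 of 2 for *MCM7*. The dimmest tested probe, *MCM4* A_73_P072841, lay between 0.30 and 1.18 over the arrays. The brightest untested probe, *MCM5* A_73_P264501, lay between -0.90 and 0.68 and was above 0 in 3 groups. Each gene is represented below by its brightest tested probe, unless another is named.

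The helicase genes fell through gestation in both breeds. From 110 to 260 dpc, with the breeds averaged, the log2 difference was -1.60 for *MCM4*, -1.49 for *MCM3*, -1.30 for *MCM5*, -1.14 for *MCM6* and -0.81 for *MCM7*. Most of this took place in 2 steps, from 110 to 180 dpc and from 210 to 260 dpc.

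*MCM4* encodes an ATPase subunit that the CDC7 kinase phosphorylates when the helicase is activated. Its normalized log2 intensity at 110 dpc was 4.94, 5.09 and 5.16 in BA and 5.27 and 5.10 in CH. At 180 dpc it was 4.39 and 4.53 in BA and 4.70, 4.58 and 4.57 in CH. At 210 dpc the BA foetuses gave 4.20, 4.17 and 4.38 and the CH foetuses 4.58, 4.16 and 4.20. The latest stage was the lowest, with 3.53 and 3.57 in BA and 3.46, 3.43 and 3.60 in CH. Every foetus at 260 dpc lay below every foetus at 210 dpc and the 110 dpc foetuses stood above all others. The fall from 110 to 260 dpc was 3.03-fold (log2 -1.60, SE 0.09, adjusted p = 1.2e-10 in limma with Benjamini-Hochberg adjustment over all tested probes).

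MCM5 pairs with MCM2 at the point where the ring opens during loading. At 110 dpc its normalized log2 intensity was 5.33, 5.59 and 5.73 in BA and 5.85 and 5.66 in CH. The values at 180 dpc were 4.73 and 5.25 in BA and 5.48, 5.11 and 5.06 in CH, and those at 210 dpc were 4.95, 4.67 and 4.91 in BA and 4.85, 5.04 and 4.87 in CH. At 260 dpc they were 4.42 and 4.36 in BA and 4.28, 4.37 and 4.29 in CH. The 260 dpc foetuses were the lowest without exception, while 180 and 210 dpc overlapped. *MCM5* fell 2.46-fold (log2 -1.30, SE 0.11, limma adjusted p = 3e-08).

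MCM6 and MCM7 belong, with MCM4, to a subcomplex that has helicase activity on its own in vitro. For *MCM6* the normalized log2 intensity at 110 dpc was 1.89, 1.85 and 2.15 in BA and 2.57 and 2.33 in CH. At 180 dpc it was 1.65 in both BA foetuses and 2.11, 1.77 and 1.74 in CH, and at 210 dpc 1.46, 1.68 and 1.67 in BA and 1.89, 1.67 and 1.82 in CH. The 260 dpc foetuses gave 0.99 and 1.23 in BA and 1.01, 0.92 and 1.13 in CH. The 260 dpc values did not overlap with those of any earlier stage. *MCM6* fell 2.20-fold (log2 -1.14, SE 0.10, limma adjusted p = 2.35e-08).

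*MCM7* had the shallowest fall of the 5 genes. Its normalized log2 intensity at 110 dpc was 5.17, 5.27 and 5.23 in BA and 5.30 and 5.27 in CH. At 180 dpc it was 4.81 and 4.92 in BA and 5.13, 5.02 and 4.90 in CH. At 210 dpc it was 4.80, 4.52 and 4.96 in BA and 4.80, 4.69 and 4.63 in CH. At 260 dpc all 5 foetuses lay between 4.42 and 4.52, close together and just below or level with the lowest 210 dpc foetus. The fall was 1.75-fold (log2 -0.81, SE 0.08, limma adjusted p = 1.78e-07). Whether the falls of the subunits differ from each other was not tested.

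**Figure D1:**
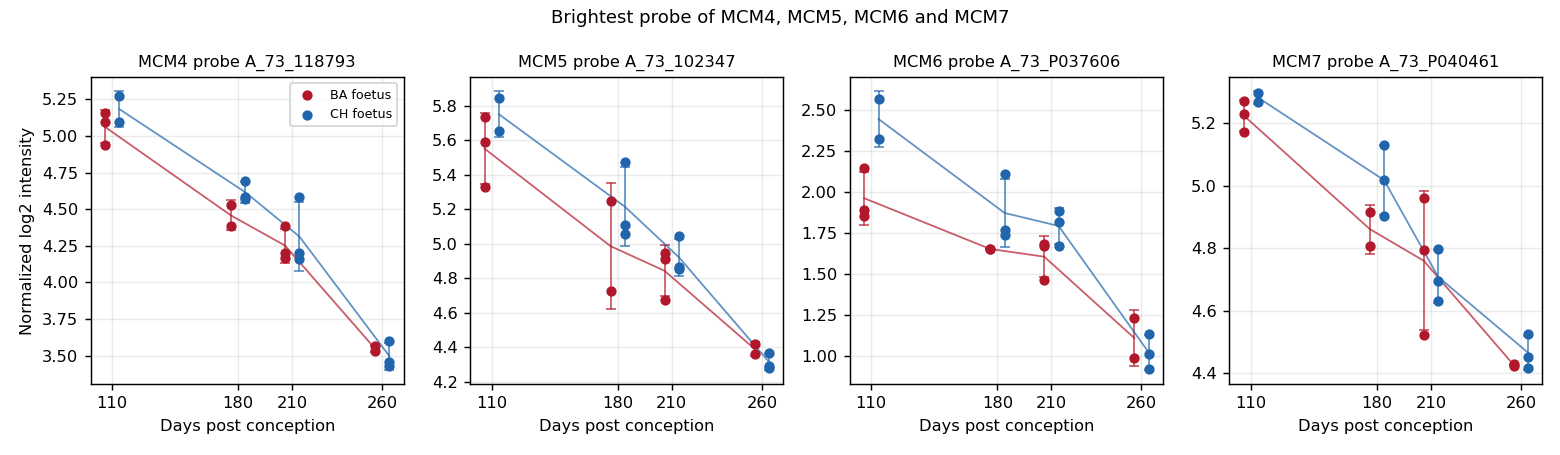
Normalized log2 intensity (vertical axis, a separate scale per panel) of the brightest probe of *MCM4*, *MCM5*, *MCM6* and *MCM7* against days post conception. Points are single foetuses, BA in red and CH in blue, lines join group means and bars are SD. All 4 genes are lowest at 260 dpc in both breeds, and the breeds lie close together at that stage.

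Over the tested probes, 9 of 10 fell between 110 and 260 dpc, against 30.8% of all tested probes called lower in this comparison. The median difference over the 10 probes was -1.39 and that over all 20132 tested probes 0.04. Between 110 and 180 dpc, 9 of 10 fell (11.4% of all tested probes were called lower), while on the unscaled values deposited by the authors 0 were called, with differences of -0.56 for *MCM4*, -0.56 for *MCM3*, -0.53 for *MCM5*, -0.42 for *MCM6* and -0.29 for *MCM7*. Between 210 and 260 dpc, 9 of 10 fell again (19.9% of all). Between 180 and 210 dpc the only call was *MCM4* A_73_P430131, which fell by 0.26 (limma adjusted p = 0.0397, 4.33% of all tested probes called lower). This call was lost for most of the 21 arrays when each was left out in turn. It was also lost with median scaling and on the unscaled values, where the difference was -0.28 and -0.26. The median over the 10 probes was -0.55, -0.20 and -0.65 for the 3 successive steps.

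Each breed showed the fall by itself. In BA, 9 of 10 tested probes were lower at 260 than at 110 dpc (24.8% of all tested probes), and in CH 9 of 10 (24.7%). Both BA foetuses at 260 dpc were females by the same sire, and the 2 BA males at 110 dpc were by the other. Stage, sex and sire are therefore partly mixed in BA. The group mean dropped at every step in both breeds for 8 of the 10 tested probes, against 12.2% of all tested probes. Every 260 dpc foetus lay below every 110 dpc foetus for 9 of the 10, against 21.8%. Arrays on 1 slide gave the same direction. In 11 comparisons of a later with an earlier stage of 1 breed on 1 slide, *MCM3*, *MCM4*, *MCM5* and *MCM7* were lower at the later stage in 11 and *MCM6* in 10.

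The exception among the probes was *MCM4* A_73_P072841. It moved against the other 4 probes of its gene, whose differences were -1.60 to -1.54. Its normalized log2 intensity at 110 dpc was 0.53, 0.66 and 0.61 in BA and 0.97 and 0.90 in CH, and at 260 dpc 0.99 and 1.07 in BA and 1.09, 1.18 and 0.86 in CH. The BA foetuses did not overlap between these stages, whereas the CH foetuses did. The probe was 0.27 higher at 260 dpc with the breeds averaged (SE 0.12, limma adjusted p = 0.0518) and 0.43 higher in BA (adjusted p = 0.0357, 27.6% of all tested probes called higher), and on the unscaled values deposited by the authors the averaged difference was -0.12 and that in BA 0.02. Probe positions within the transcript were not analysed here. The 4 untested probes of the helicase, 2 of *MCM3*, 1 of *MCM5* and 1 of *MCM7*, were all lower at 260 dpc. The differences were -1.39 for *MCM3* A_73_P399416, -1.12 for *MCM5* A_73_P264501 and -0.81 for *MCM7* A_73_P318881, and *MCM3* A_73_P185607 gives only an approximate bound.

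*MCM3*, a subunit that also contacts the loading factors at the origin, was measured by 3 probes, of which A_73_105887 was well above background on all 21 arrays and was the probe with the breed difference. At 110 dpc its normalized log2 intensity was 2.05, 2.91 and 1.98 in BA and 2.98 and 2.80 in CH. At 180 dpc it was 1.34 and 1.54 in BA and 2.77, 2.48 and 2.56 in CH. The breeds overlapped at 110 dpc through the second BA foetus and were apart at 180 dpc. At 210 dpc the BA foetuses gave 1.13, 1.04 and 1.57 and the CH foetuses 2.39, 2.33 and 2.20. At 260 dpc they gave 0.70 and 0.85 in BA and 1.62, 1.29 and 1.43 in CH. At 180, 210 and 260 dpc every BA foetus lay below every CH foetus, and the BA values at 180 dpc were near the CH values at 260 dpc.

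BA minus CH for this probe was -0.57 at 110 dpc, -1.16 at 180 dpc, -1.06 at 210 dpc and -0.67 at 260 dpc, with an average of -0.87 (SE 0.11, a 1.82-fold lower signal in BA). These values chose the gene, so no test is given. Of all tested probes, 0.788% had every BA foetus below every CH foetus at 3 or more stages. This share is a description and no test, since the probe was chosen for its breed difference. The fall from 110 to 260 dpc of this probe was 2.81-fold with the breeds averaged (log2 -1.49, SE 0.16, limma adjusted p = 2.57e-07). It was -1.54 in BA and -1.44 in CH.

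The difference at 110 dpc depended on which BA foetuses were compared. The second BA foetus at 110 dpc, with 2.91, was female and by a different sire than the other 2, which were male, and both CH foetuses were female. Among females alone the difference at 110 dpc was 0.02, whereas it was -1.18, -1.30 and -0.65 at 180, 210 and 260 dpc. Without this foetus, which was singled out after its value was seen, the 110 dpc difference was -0.87 and the average -0.94. Sex and sire cannot be told apart among the BA foetuses at 110 dpc. Within single slides BA minus CH was -1.35 to -0.73 in 5 comparisons and -0.07 in the remaining one, at 110 dpc with the second BA foetus. These are the values that chose the gene, divided by slide, and add no support.

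Neither of the other *MCM3* probes was lower in BA at every stage. A_73_P399416 was dim, well above background on 20 of 21 arrays and below the level needed for testing. Its normalized log2 intensity at 110 dpc was -0.68, -0.23 and -0.21 in BA and -0.53 and -0.68 in CH. At 180 dpc it was -1.29 and -1.05 in BA and -0.98, -1.20 and -0.95 in CH. The breeds overlapped at both stages. At 210 dpc it was -1.20, -1.17 and -1.68 in BA and -1.14, -1.21 and -1.37 in CH, and at 260 dpc -1.87 and -1.86 in BA and -2.10, -1.93 and -1.64 in CH. The breeds overlapped here too, at all 4 stages.

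BA minus CH for A_73_P399416 was 0.23, -0.13, -0.12 and 0.03 at the successive stages. The average was 0.005 with a 95% interval of -0.19 to 0.20. Its difference between 260 and 110 dpc was -1.39 (SE 0.13), against -1.49 (SE 0.16) for A_73_105887. Whether the probes of *MCM3* differ from each other was not tested.

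The third probe, A_73_P185607, was well above background on 11 of 21 arrays and on none at 260 dpc. BA minus CH was -0.50, -0.65, 0.02 and -0.19 at the successive stages, with an average of -0.33 (95% interval -0.70 to 0.04). The average includes values not well above background, namely all at 260 dpc, some at 210 dpc and those of both BA foetuses at 180 dpc. Every BA foetus lay below every CH foetus at 110 and 180 dpc and not at 210 or 260 dpc. As an approximate bound at 260 dpc, the lowest signal of a probe well above background was taken. With it, the fall from 110 dpc was 1.74-fold in BA foetuses and 2.51-fold in CH foetuses. The bound is not strict, since in 1 CH foetus at 260 dpc A_73_P399416 was not well above background at -1.93, above the bound of -2.35 used for CH. The average breed difference of A_73_P185607 could not be placed on either side of 0. At 110 dpc, where every array was well above background, the 95% interval of BA minus CH was -1.26 to 0.26.

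**Figure D2:**
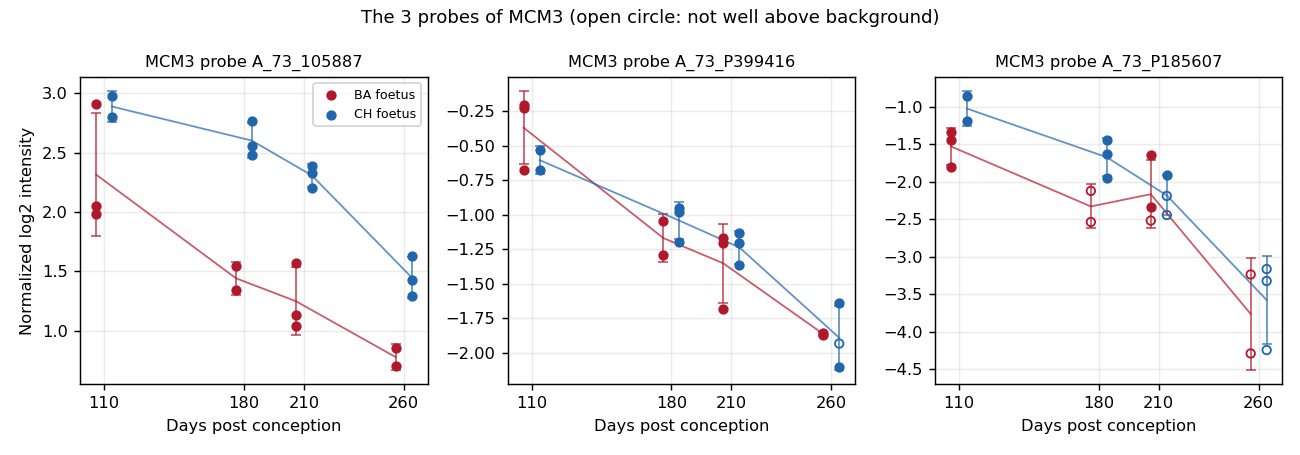
Normalized log2 intensity (vertical axis, a separate scale per panel) of the 3 *MCM3* probes against days post conception. Points are single foetuses, BA in red and CH in blue, open where not well above background, lines join group means and bars are SD. In A_73_105887 the BA foetuses lie below the CH foetuses from 180 dpc on, and in A_73_P399416 the breeds overlap at all 4 stages.

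The other subunits did not pass the test between breeds. None of their 9 tested probes was called on average over the stages, where 0.358% of all tested probes were. None was called at 110 dpc (0.273%), 180 dpc (0.00993%), 210 dpc (0%) or 260 dpc (0%). At an unadjusted p under 0.05 there was 1 probe on average (*MCM6*), 1 at 110 dpc (*MCM6*), 0 at 180 dpc, 1 at 210 dpc (*MCM4* A_73_P430131) and 0 at 260 dpc.

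BA minus CH averaged over the stages was below 0 for 9 of the 9 probes, although *MCM7* was 0.004 on the unscaled values deposited by the authors. It was below 0 for 9 at 110 dpc, 9 at 180 dpc, 8 at 210 dpc and 2 at 260 dpc, where 7 were above 0. The median over the 9 probes was -0.16, -0.23, -0.08 and 0.06 at the successive stages, against -0.04, -0.003, 0.002 and -0.01 over all tested probes. The 9 probes stand for 4 genes measured in the same foetuses and are not independent of each other.

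Averaged over the stages, BA minus CH was -0.07 for *MCM4* (95% interval -0.20 to 0.06), -0.11 for *MCM5* (-0.27 to 0.06) and -0.05 for *MCM7* (-0.17 to 0.07). *MCM6* had the largest, -0.20 (-0.34 to -0.06, limma adjusted p = 0.221). At 110 dpc *MCM6* was -0.48 (adjusted p = 0.154), with all 3 BA foetuses, 1.85 to 2.15, below both CH foetuses, 2.33 and 2.57. Of the 9 probes, 3 had every BA foetus below every CH foetus at 110 dpc (17.5% of all tested probes did), 4 at 180 dpc (13.7%), 1 at 210 dpc (4.93%) and 0 at 260 dpc (10.2%). The BA mean was below the CH mean at all 4 stages for 1 of the 9, *MCM4* A_73_P072841, against 10.5% of all tested probes.

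The fall from 110 to 260 dpc was compared between breeds for the same 9 probes, and none was called (0% of all tested probes). The change in BA minus that in CH was above 0 for 9 of the 9, although *MCM7* was -0.01 with quantile normalization and -0.03 on the unscaled values. The median was 0.22 against 0.03 over all tested probes. For 8 of the probes this was a smaller fall in BA. For *MCM4* A_73_P072841 the change was 0.43 in BA and 0.11 in CH, where the 95% interval was -0.24 to 0.45. *MCM6*, the 1 probe at an unadjusted p under 0.05, had a fall of -0.85 in BA against -1.42 in CH, a difference of 0.57 (95% interval 0.15 to 0.99, limma adjusted p = 0.638). For *MCM3* A_73_105887, given without a test, the same difference was -0.10 (SE 0.31).

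**Figure D3:**
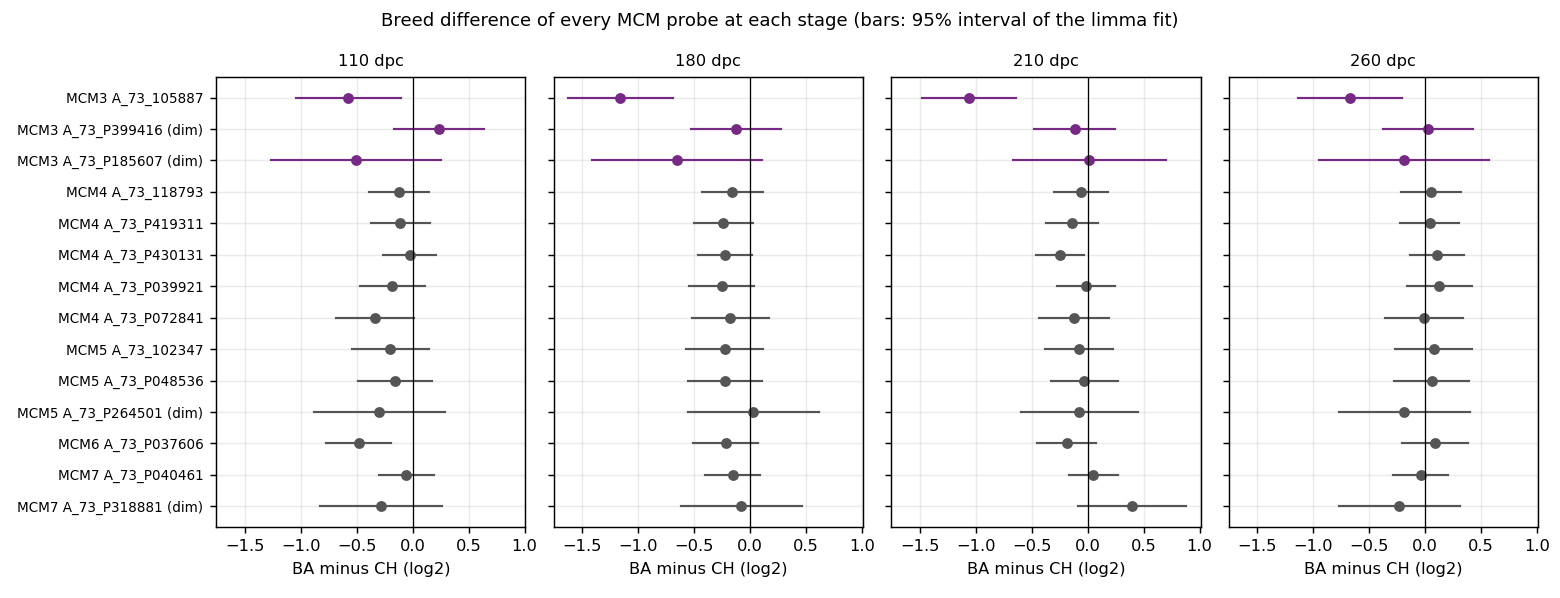
BA minus CH (horizontal axis, log2) at each stage for every probe of the helicase genes, with 95% intervals from the limma fit across all arrays. *MCM3* probes are purple, the other subunits grey, and probes under the level needed for testing are marked dim. *MCM3* A_73_105887, which was chosen for this difference, is at -0.57 to -1.16, and the tested probes of the other subunits lie between -0.48 and 0.13. The intervals of the chosen probe are a description and no test.

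Setting *MCM3* against the other subunits of the same array removes what they share. The level of A_73_105887 minus the mean of *MCM4* to *MCM7* depends on the brightness of the probes, so only its change between arrays can be read. In CH it averaged -1.78, -1.58, -1.63 and -1.88 at the successive stages and ranged from -2.02 to -1.51 over 11 foetuses. In BA it averaged -2.14, -2.55, -2.62 and -2.59 and ranged from -2.72 to -1.54 over 10 foetuses. The female BA foetus at 110 dpc was the only one inside the CH range. The other 2 BA foetuses at that stage had -2.28 and -2.58. This is a description, since it contains the values that chose *MCM3*.

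**Figure D4:**
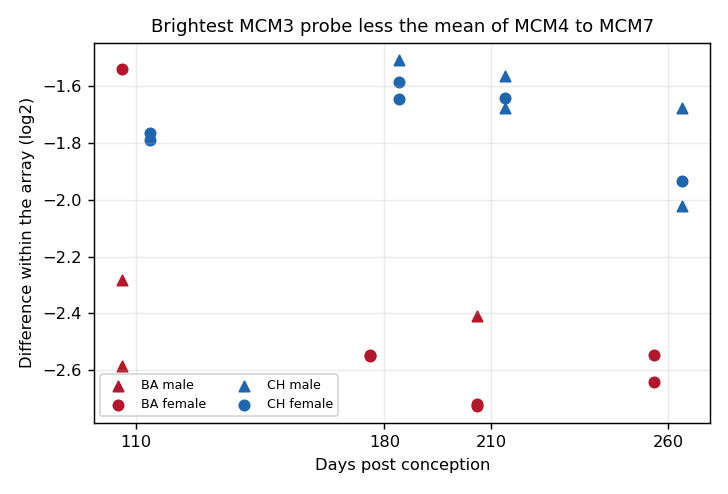
Level of *MCM3* A_73_105887 minus the mean level of *MCM4*, *MCM5*, *MCM6* and *MCM7* in the same array (vertical axis, log2) against days post conception. Each point is 1 foetus, BA in red and CH in blue, triangles for males and circles for females. The BA foetuses lie between -2.72 and -2.28 except the female at 110 dpc, at -1.54, and the CH foetuses between -2.02 and -1.51.

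Across the 21 arrays the 6 pairs among *MCM4*, *MCM5*, *MCM6* and *MCM7* had Pearson correlations of 0.859 to 0.956, and the 4 pairs with *MCM3* 0.752 to 0.770. After the mean of each group was subtracted, the pairs had 0.156 to 0.610 and those with *MCM3* 0.055 to 0.525. *MCM3* stands here as A_73_105887, which was chosen for its breed difference, and that choice can lower its correlations across the arrays. The *MCM3* probe A_73_P399416, below the level needed for testing, had 0.936 with *MCM4*, 0.919 with *MCM5*, 0.841 with *MCM6* and 0.867 with *MCM7*. After the group means were subtracted it had -0.217 to 0.356. Whether *MCM3* follows the other subunits less closely was not tested. All these values are descriptions. The arrays share stages, slides and their scaling.

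Other genes of DNA replication moved in both directions. A list of 50 such genes had a probe for 42, and 31 were tested. Between 110 and 260 dpc 17 of them fell, 6 rose and 8 were not called, with a median of -0.41. Of all tested probes, 30.8% were called lower and 33.3% higher. Because the filter asks for signal at nearly every stage, it can leave out genes that fell far.

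Among the genes that load the helicase, 2 of 6 tested fell and 1 rose, against 30.8% and 33.3% of all tested probes. *GMNN*, the inhibitor of loading, fell by 1.10, *ORC3* fell by 0.38 and *ORC4* rose by 0.32, the last 2 being subunits of the origin recognition complex. *ORC2*, *ORC5* and *ORC6* were not called. *CDC6*, a loading factor, was under the filter and well above background on 9 of 21 arrays, so no size is given. Of the 11 listed genes that activate the helicase, 7 had a probe and 5 were tested. All 5 tested fell (30.8% of all tested probes did), namely *GINS1* by 1.74 and *GINS3* by 0.66, both parts of the GINS complex, *CDC7*, the activating kinase, by 1.00, *TOPBP1* by 0.72 and *CDC45* by 0.57 (limma adjusted p = 1.93e-11 for *GINS1* and 0.012 for *CDC45*). *GINS4* was well above background on 2 of 21 arrays and is given no size. *CDT1*, *DBF4*, *GINS2* and *MCM10* were matched by no probe.

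Of 18 tested genes for the polymerases, the sliding clamp and its loader, and the joining of fragments, 9 fell and 5 rose. Over all tested probes 30.8% were called lower and 33.3% higher. *LIG1*, the replicative ligase, fell by 1.72, *FEN1*, the flap endonuclease, by 1.45, *POLD1*, the catalytic subunit of polymerase delta, by 1.31 and *POLD3* by 1.27. The 5 that rose were *POLE3* by 0.50, *POLD2* by 0.41, *RPA2* by 0.41, *POLD4* by 0.34 and *RFC2* by 0.29. *MCMBP*, a binding partner of the MCM proteins, was at 0.11 (limma adjusted p = 0.284). Of the 31 replication genes, 0 were called between the breeds on average, with a median of -0.03. Only 0.358% of all tested probes were called in this comparison.

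**Figure D5:**
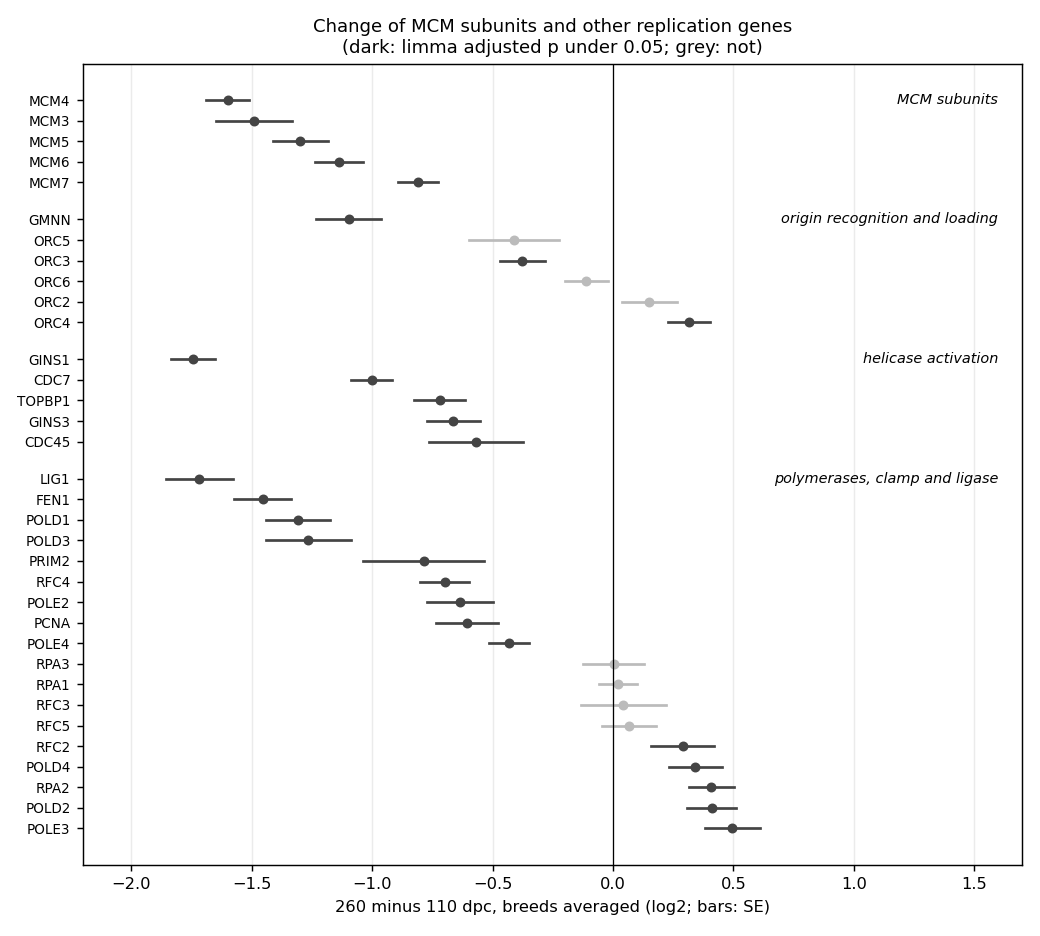
Difference between 260 and 110 dpc with the breeds averaged (horizontal axis, log2) for the helicase genes and for tested genes in 3 groups of the replication list. Bars are SE, dark points passed the test and grey ones did not. The 5 helicase genes and all 5 tested helicase activation genes lie below 0, and the other 2 groups lie on both sides.

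Genes of proliferation were also listed. Of 17, 14 had a probe, 5 were tested and 5 fell, against 30.8% of all tested probes. *RRM2*, the inducible subunit of ribonucleotide reductase, fell by 2.69, *PLK1*, a mitotic kinase, by 1.57, and *TYMS*, thymidylate synthase, by 1.25. The 9 untested genes, among them cyclins, were below the filter.

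The genes most like the helicase across the 21 arrays were ranked by Pearson correlation with the mean of the 5 representative probes, among 7927 genes. They were *CHTF18* (0.968), *TYMS* (0.965), *CHAF1A* (0.963), *EBF2* (0.958), *PRC1* (0.957), *NAP1L1* (0.955), *STMN1* (0.951) and *LIG1* (0.949). All 8 were lower at 260 than at 110 dpc, with differences of -2.66 to -1.25. The helicase mean itself fell between these stages, so the ranking picks genes that fell, and their fall is no separate result. After the mean of each group was subtracted, the order changed to *ARPC5L* (0.825), *CLEC14A* (0.803), *QKI* (0.789), *FEM1B* (0.766) and *CHMP4A* (0.759). The arrays share their scaling, and these are descriptions.

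RNA levels of cell type markers changed with the stages, which can follow from the share of a cell type or from its RNA per cell. The summed level of a marker list is the sum of 2 raised to the normalized log2 intensity of its genes, so its brightest probes weigh most. The 8 skeletal muscle markers with a probe summed to 4289 to 5407 in BA and 5359 to 5713 in CH at 110 dpc, and to 11155 to 12029 and 10583 to 12179 at 260 dpc. Of these 8, 4 rose and 2 fell, *MYH3* and *MYOG*, against 33.3% and 30.8% of all tested probes. The summed level of the 7 erythroid markers went down. It was 826 to 1332 in BA and 1272 to 1433 in CH at 110 dpc, and 269 to 332 and 194 to 467 at 260 dpc. Of the 4 tested, 3 fell and 1 was not called.

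The 6 connective tissue markers summed to 1861 to 3672 in BA and 2184 to 2550 in CH at 110 dpc and to 1294 to 1787 and 1169 to 1918 at 260 dpc, and 5 of 6 fell. The summed level of the 3 adipocyte markers rose. It was 3.79 to 11.9 in BA and 5.02 to 5.05 in CH at 110 dpc, and 46.5 to 79.2 and 44.4 to 80.8 at 260 dpc. Of the 2 tested, 1 was called higher. Sums of the leukocyte markers overlapped between the stages, at 71.8 to 115 at 110 dpc and 85.9 to 92.3 at 260 dpc. Of 4 tested leukocyte markers, 2 rose and 1 fell, of 5 endothelial markers 3 rose and 1 fell, and of 3 tested Schwann cell markers 2 rose, against 33.3% called higher and 30.8% lower over all tested probes. The part of these changes in the fall of the helicase genes was not tested. Between the breeds on average, no tested gene of these marker lists was called, where 0.358% of all tested probes were.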

How the data were processed

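RNA of 21 foetal muscles was measured on single-colour Agilent 4x44K bovine arrays, 1 array per foetus. The intensity values were made by the authors with Feature Extraction 10.7 (background and multiplicative detrending, no background subtraction). The authors' deposited value table is the log2 of the same intensity (99.98% of 649670 values within 0.01), with no scaling between arrays. The deposited well-above-background, outlier and saturation flags were used as other columns of the scanner files.

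Control spots and 258 outlier spot values were left out. The log2 processed intensity was reduced by the 75th percentile of its array, which was 525 to 1174 intensity units, and 2.69 was added. Probes were named by accession through the annotation of assembly ARS-UCD2.0 (26628 probes, 12538 genes), and since the array was designed on another assembly no positions are given. The model held a mean for each of the 8 breed and stage groups (limma 3.58.1, R 4.3.3; residual degrees of freedom 13, prior 3.79). Calls used Benjamini-Hochberg adjustment over 20132 probes and a threshold of 0.05. Foetuses are separate animals that share 2 sires within each breed, and the number of arrays limits the precision.

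The text names every member probe, at most 4 genes per list with the lowest p together with genes that bind the MCM complex, and the genes most correlated with it. *ORC2*, *ORC6*, *POLE3*, *POLD2*, *RPA2*, *POLD4*, *RFC2*, *MYH3* and *MYOG* fall outside this rule and were named after their values were seen, to complete counts. The members and lists were chosen with earlier results of these data known. The replicate numbers carry no pairing. After centring on group means, the median correlation was 0.03 over 66 pairs of arrays sharing a number and -0.003 over 126 pairs that did not.

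The alternatives were normexp background correction, quantile or median scaling, the values as deposited, a detection filter or none, a sex term, the females by themselves, a block for slide, scan day, sire or replicate number, a trended robust variance, the arrays compared alone, the median of a gene's probes and each array left out. On simulated data with 200 of 20052 probes shifted by 1, the comparison of 260 with 110 dpc recovered 187 (93.5%) with 14 false calls. The average breed comparison recovered 195 (97.5%) with 22 false calls, and 158 (79%) with 12 after a shift of 0.5. At 210 dpc alone the breed comparison recovered 172 (86%) with 5 false calls after a shift of 1. Only brighter probes were shifted, and the simulated noise was normal and independent between probes. *MCM6*, *MCM3* A_73_105887 and *MCM4* A_73_P039921 and A_73_P072841 were dimmer than the shifted probes, so these rates do not cover them. Figures were drawn with matplotlib 3.10.9.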

Additional observations from a re-analysis of the deposited data

How the results depend on the processing

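Counts are of tested probes past the threshold in either direction. From 110 to 260 dpc the count was 9 to 13 under 14 alternatives and 9 to 10 with each array left out. Counts of 10 held 9 falls and the rise of *MCM4* A_73_P072841, and 13 was reached where 14 probes were tested. The replication genes called numbered 17 to 30 and 19 to 24. From 110 to 180 dpc the count was 0 on the authors' value table, where *MCM4* was still at -0.56 and *MCM7* at -0.29, and 7 to 9 with an array left out. From 180 to 210 dpc it was 2 with normexp and 0 with median scaling, the authors' table, no filter, the detection filter, sex as a covariate, females alone, slide as a block or only the arrays compared. With an array left out it was 0 to 3: 3 without CH replicate 1 at 210 dpc, and 0 without either BA foetus at 180 or 260 dpc, BA replicate 2 or 3 or CH replicate 2 or 3 at 210 dpc, either CH foetus at 110 dpc, or CH replicate 1 or 3 at 180 dpc. The cause was not tested. Breed counts of the other subunits were 0 under every alternative run.

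With the replicate block the count from 110 to 260 dpc was 9, and the block changed no other count by over 1.5 times. It left *MCM3* at -0.87 between breeds. *MCM3* at 110 dpc reversed to 0.024 in females alone, -0.31 with slide as a block and -0.87 to -0.41 with an array left out. With normexp it was -0.88 at 180 and -0.42 at 260 dpc. Its average was -0.91 to -0.67 under the alternatives and -0.94 to -0.83 with an array left out. *MCM7* reversed on the authors' table, to 0.0038. Median scaling moved the median of all tested probes from 110 to 260 dpc to 0.13 and the authors' unscaled table to -0.36, where *MCM4*, *MCM3*, *MCM5*, *MCM6* and *MCM7* stayed lower. Dim probes are limited by background: 1 *MCM3* probe was not measured at 260 dpc.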
